A study of Mus musculus with 12 samples.

Results

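Gonadal (peri-uterine) white fat of pregnant knockout mice given vehicle was compared with the same fat of pregnant wild-type mice given vehicle. The comparison used 8 of the 12 libraries in the series, 4 per group, chosen by the genotype and treatment in their labels. Knockouts carry the label Tnfrsf11a (Rank) with Foxn1 Cre +, wild types carry the same gene name with Cre-, and all animals were pregnant at E17.5. These groups are called KO vehicle and WT vehicle below. The other 4 libraries (KO Treg) came from knockouts of the same label given the treatment labelled Treg, and their values are printed beside a few results. The title of each library has a separate number, which was read as 1 animal. P-values set the difference between the groups against a spread between libraries that was estimated from all 12.

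Tnfrsf11a encodes RANK, the receptor of the cytokine RANKL. In the thymus, RANK signals drive the growth of medullary epithelial cells, on which the production of regulatory T cells depends, and Foxn1 is the master transcription factor of thymic epithelium. A Cre under Foxn1 control acts in thymic epithelium and in skin and hair epithelium, and fat cells are not among its known targets. White fat stores triglyceride in adipocytes, and it also holds progenitors and fibroblasts, a dense capillary bed, macrophages and lymphocytes, with mesothelium on its surface. Its lipid synthesis, matrix and blood supply are known to be remodelled during pregnancy. In whole tissue, fewer cells of a type and less RNA per cell cannot be told apart.

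The WT vehicle libraries held between 5551967 and 12972655 counts and the KO vehicle libraries between 8350348 and 9617503. Levels are given as CPM, read counts relative to the library total after TMM scaling, and 3 counts correspond to 0.241 to 0.539 CPM in these 8 libraries. Tnfrsf11a read 4.66, 8.79, 10.6 and 8.74 CPM in WT vehicle 1 to 4 and 7.65, 8.89, 6.19 and 7.72 CPM in KO vehicle 1 to 4. The groups overlapped (log2 fold change -0.09, edgeR adjusted p = 0.936), and since Foxn1 had 0 counts in all 12 libraries, this checks nothing about a deletion in the thymus. Adipocyte genes were abundant in all libraries: Fabp4, the adipocyte fatty acid carrier, lay between 19027 and 34996 CPM in the 8 libraries. Among the 8 vehicle libraries, KO vehicle 1 stood apart by placental transcripts. It held counts for 15 of 21 placental trophoblast genes, with 110 counts of Tpbpa, a spongiotrophoblast gene, and 84 of Prl3b1, placental lactogen. WT vehicle 1 to 4 and KO vehicle 2 to 4 held counts for 1 to 8 of the 21 genes, with at most 6 counts of Tpbpa and 7 of Prl3b1. KO Treg 2, which entered the fit, also held counts for 15 of the 21, with 336 of Tpbpa and 218 of Prl3b1. The part of placental RNA in the results was not tested, and values without KO vehicle 1 are given for the called genes in which it was the highest or lowest of the 8 libraries.

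Across all genes the groups were close. The median log2 fold change, KO vehicle minus WT vehicle, was -0.0039 over 12175 genes tested, the middle of the distribution ran from -0.18 to 0.18 (25th to 75th percentile), and the 5th and 95th percentiles were -0.61 and 0.58. The median absolute log2 fold change was 0.18. Of the genes tested, 49.2% lay above 0 and 50.8% below. Genes above 1 numbered 174, and in 93 of them every KO vehicle library lay above every WT vehicle library. Genes below -1 numbered 224, and in 49 of them the groups did not overlap. Weakly expressed genes spread most: under 5 CPM the median absolute difference was 0.32, against 0.16 between 5 and 50 CPM and 0.14 between 50 and 500 CPM.

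**Figure D1:**
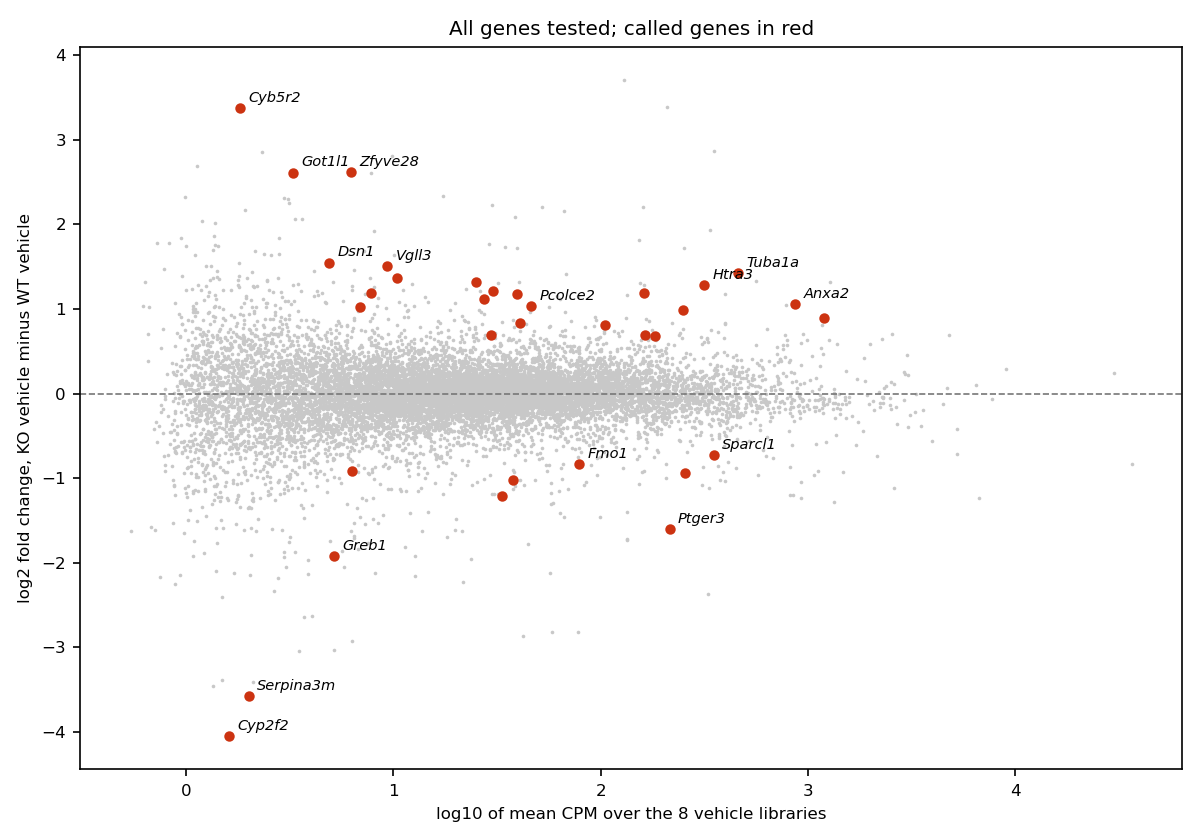
Each point is 1 of 12175 genes, placed by the log10 of its mean CPM over the 8 vehicle libraries (horizontal) and its log2 fold change, KO vehicle minus WT vehicle (vertical), with the 34 called genes in red. The 5th to 95th percentiles run from -0.61 to 0.58, and called genes occur over the whole range of levels, 5 of them under 5 CPM and 2 at 500 CPM or more.

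A gene was called when its edgeR adjusted p was under 0.05 over all 12175 genes. Of these genes, 34 (0.279%) were called. In KO vehicle 24 rose (0.197%) and 10 fell (0.0821%), and 1514 (12.4%) had an unadjusted p under 0.05. The groups did not overlap in 792 genes (6.51%), 508 higher (4.17%) and 284 lower (2.33%). Called genes that rose included secreted matrix proteins, membrane and cytoskeletal proteins and mitotic genes. Those that fell included enzymes of xenobiotic and amino acid breakdown, a prostaglandin receptor and an estrogen-induced gene. Most calls needed nearly all libraries. Leaving out KO vehicle 1, KO vehicle 2 or WT vehicle 3 kept 1 of the 34 calls, leaving out KO vehicle 4 kept 2, KO vehicle 3 or WT vehicle 2 kept 10, WT vehicle 1 kept 15 and WT vehicle 4 kept 32. Without a KO Treg library, which enters the filter, the scaling and the spread but not the difference, 34, 26, 20 and 14 calls were kept for KO Treg 1 to 4. In each of these fits all 34 genes kept their direction, an unadjusted edgeR p under 0.05, and a log2 fold change that moved by at most 1.25 times (Morf4l2).

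**Figure D2:**
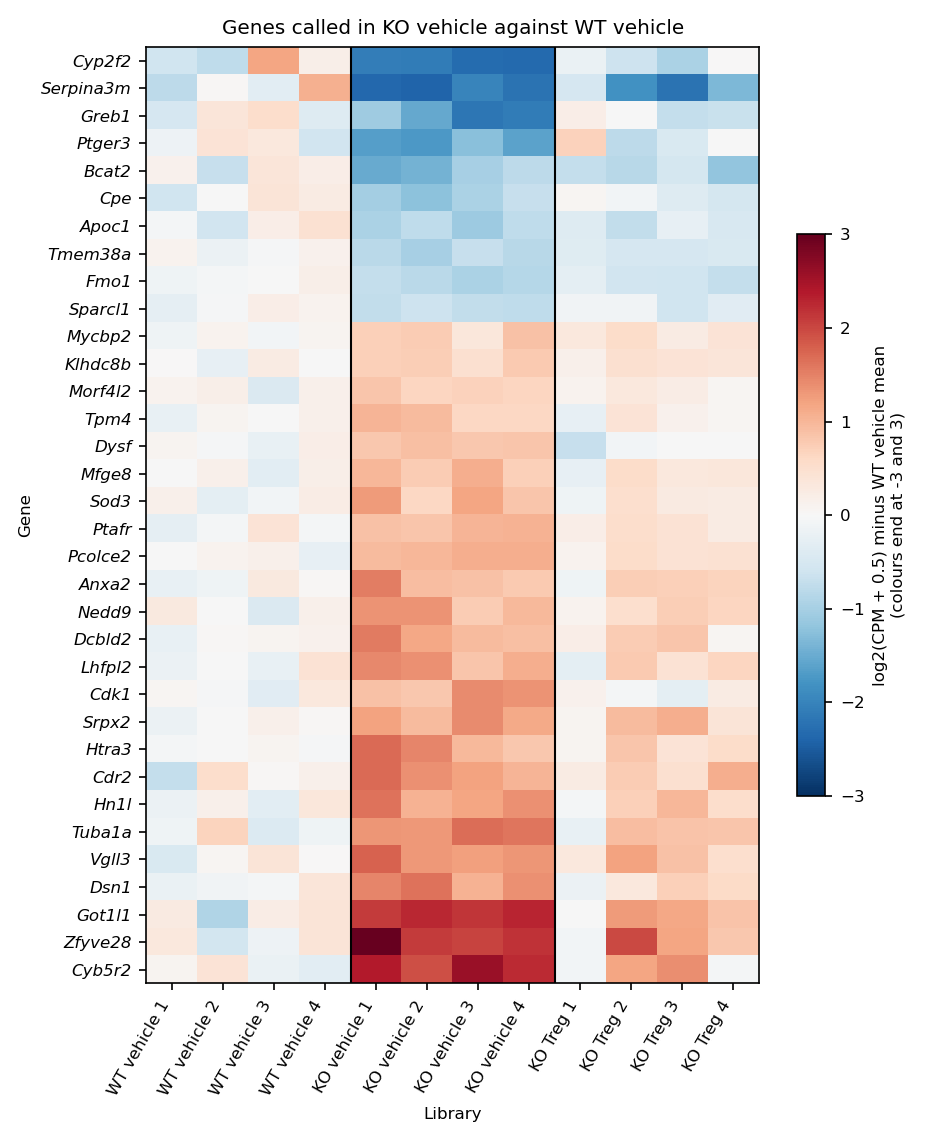
Rows are the 34 called genes and columns the 12 libraries; colour gives the log2 level in CPM minus the WT vehicle mean of the gene, with colours ending at -3 and 3. The 4 KO vehicle columns are all red for the 24 higher genes and all blue for the 10 lower genes, while the KO Treg columns, which did not enter the difference, vary.

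The titles carry numbers of a lower series (all 4 KO vehicle animals, WT vehicle 1 and WT vehicle 2) and a higher series (WT vehicle 3 and WT vehicle 4). KO Treg 1 and 2 fall in the lower series and KO Treg 3 and 4 in the higher, and they entered the fits below. Within the lower series the wild type rests on WT vehicle 1 and WT vehicle 2 alone. No label names a batch, and no KO vehicle animal falls in the higher series. With the series as a covariate, 0 genes were called by edgeR (1474 at an unadjusted p under 0.05), and 0 within the lower series alone (1337 at an unadjusted p under 0.05). All 34 genes kept their direction and an unadjusted edgeR p under 0.05 in both fits. Their adjusted p with the covariate ran from 0.0533 to 0.115. Within the lower series their log2 fold changes were between 0.645 times (Apoc1) and 1.18 times (Ptafr) those of the 12-library fit. DESeq2 called 259 genes and limma voom with quality weights 44.

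To describe compartments and pathways, 76 gene lists were read: 25 of cell type markers and 51 of pathways. Of these, 71 had at least 4 genes tested. A list is given by how many genes lay above and below 0, by its median log2 fold change and by its mean log2 CPM in each library, beside the medians over all genes given above. In 5 of the 71 lists (7.04%) the library means of the groups did not overlap, a share near the 6.51% of single genes. Caveolae and membrane repair, matrix processing enzymes, cell cycle and Hippo lists were higher in KO vehicle, and flavin monooxygenases, P450s and carboxylesterases were lower. Each of these lists holds 1 or 2 called genes, which are part of its mean. In the Hippo list the separation of the means depends on its called gene, Vgll3.

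**Figure D3:**
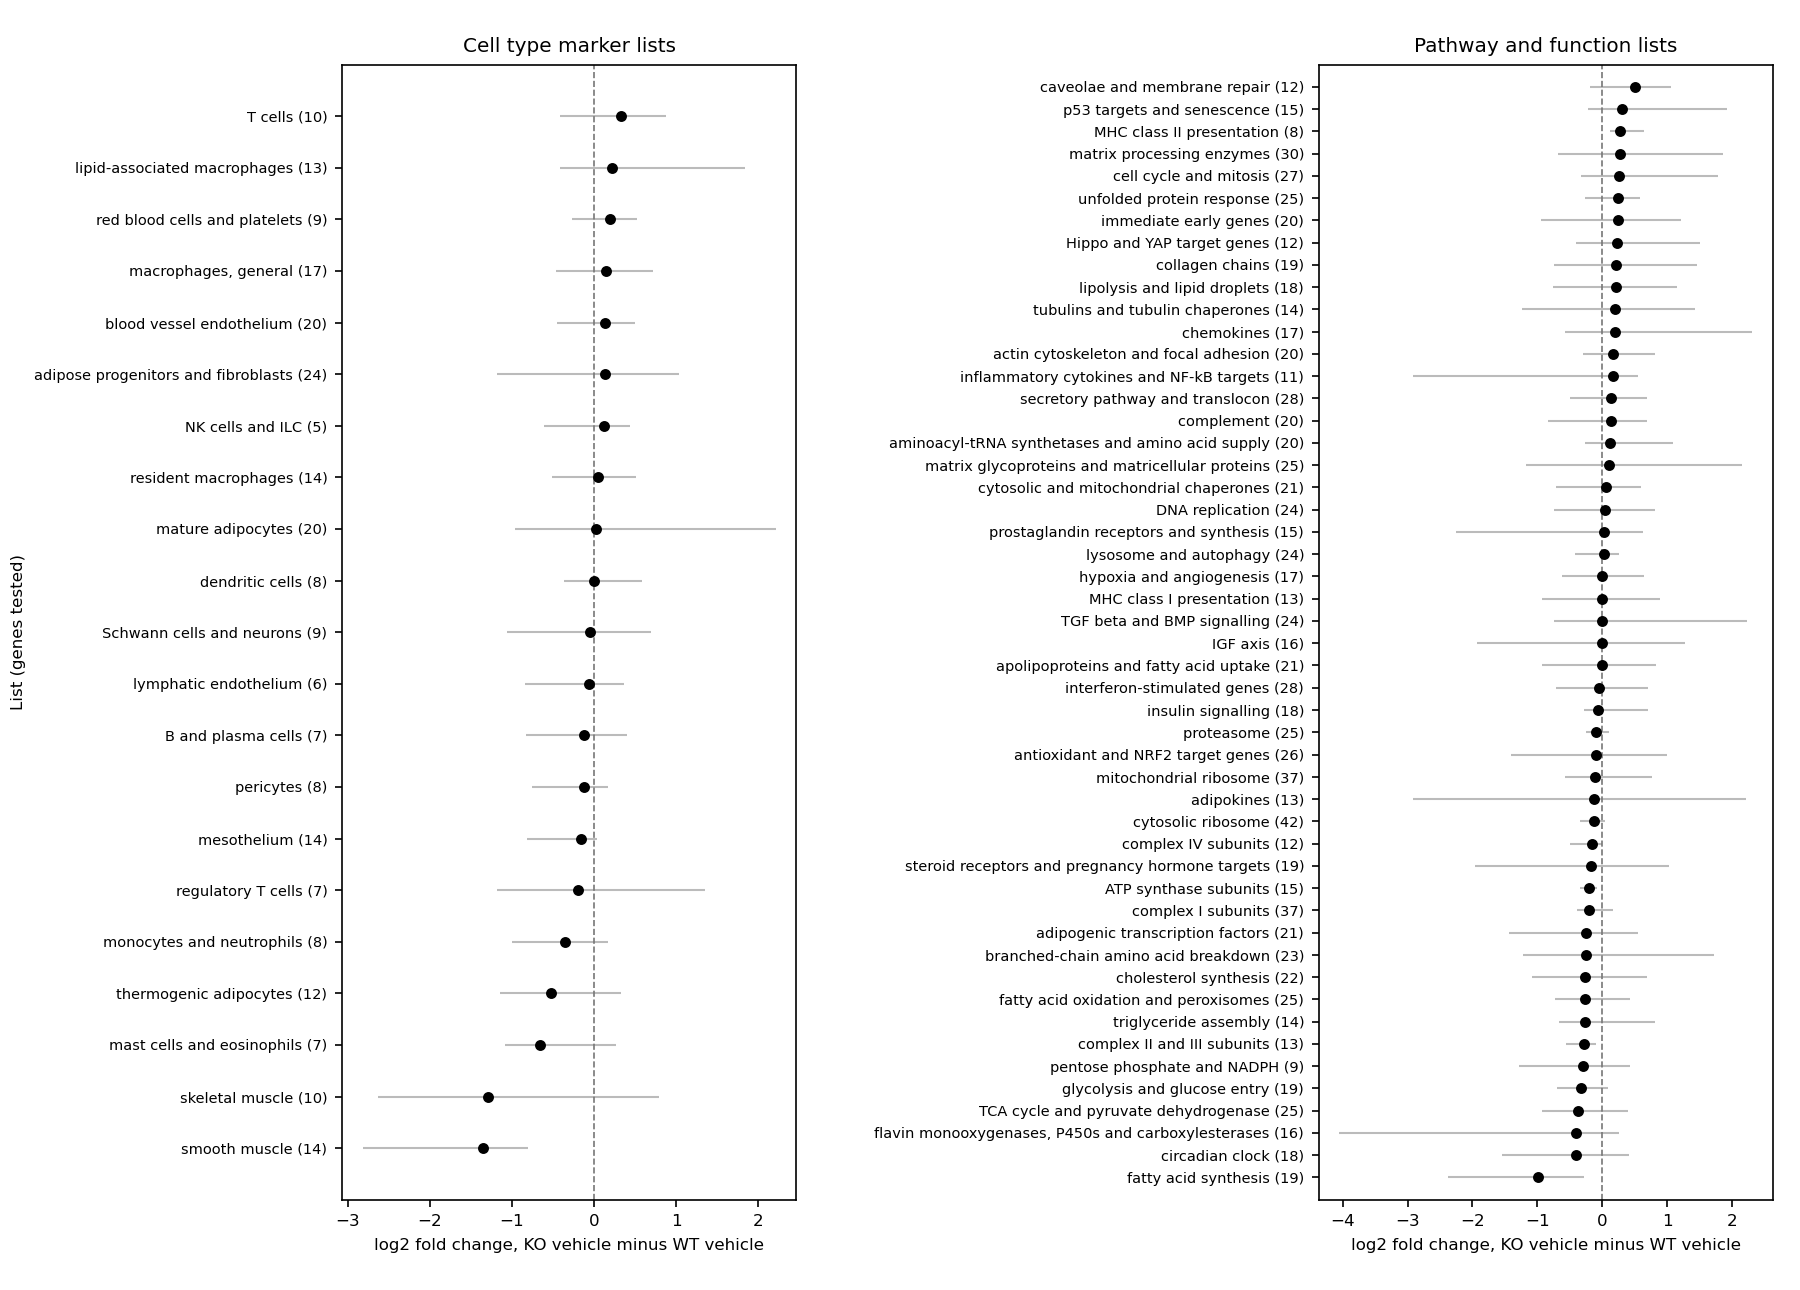
Points give the median log2 fold change (KO vehicle minus WT vehicle) of each list with at least 4 genes tested, and grey lines run from its lowest to its highest gene; the number of genes tested is in brackets. Of the 21 cell type lists, 15 have a median within 0.25 of 0, and muscle lists lie lowest at -1.35 and -1.30, whereas fatty acid synthesis (-0.997) and caveolae (0.50) bound the pathway lists.

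The adipocyte marker list was level by its median and its mean log2 CPM, but not by its summed CPM. Of 20 mature adipocyte genes, 10 lay above 0 and 10 below (median 0.02), none was called, and 4 did not overlap between groups (3 higher, 1 lower). Library means of the list were 10.17, 9.92, 9.69 and 9.82 log2 CPM in WT vehicle and 9.70, 9.83, 10.37 and 9.79 in KO vehicle, with the highest in KO vehicle 3. Summed CPM, in which the most abundant genes weigh most, was 122904, 101689, 111292 and 98457 in WT vehicle. In KO vehicle the sums were 82182, 81510, 106208 and 90947. KO vehicle 1, 2 and 4 thus lay below every WT vehicle library, and KO vehicle 3 lay within their range. Within this list single genes lay far apart. Lep, the hormone that reports fat stores, read 28.5, 121, 33.2 and 43.0 CPM in WT vehicle and 313, 134, 308 and 293 CPM in KO vehicle. Every KO vehicle library was above every WT vehicle library, but the lowest KO value lay close to WT vehicle 2, and the test was not passed (log2 fold change 2.21 ± 0.49 SE, edgeR adjusted p = 0.102). Cfd, the complement protease adipsin, read 49486, 42656, 56277 and 38473 CPM in WT vehicle and 18858, 23532, 31715 and 30606 CPM in KO vehicle. The groups did not overlap, and the difference missed the threshold (-0.84 ± 0.18, edgeR adjusted p = 0.0657).

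Thermogenic adipocyte genes were high in single libraries of both groups. Ucp1, the uncoupling protein of brown and beige fat, read 1968, 0.965, 0.539 and 47.4 CPM in WT vehicle and 0.457, 779, 216 and 0.203 CPM in KO vehicle. WT vehicle 1, KO vehicle 2 and KO vehicle 3 held most of it. Of 12 genes, 11 lay below 0 (median -0.52), and without WT vehicle 1 the median was 0.58.

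Markers of adipose progenitors and fibroblasts stood 14 above and 10 below 0 (median 0.13, 1 called higher), with library means of 4.70 to 5.13 log2 CPM in WT vehicle and 4.91 to 5.12 in KO vehicle. The called gene was Pcolce2. Other members went the opposite way: Cd34, a progenitor and endothelial surface protein, read 130, 124, 125 and 95.9 CPM in WT vehicle and 80.9, 84.8, 79.4 and 83.7 CPM in KO vehicle (-0.53 ± 0.12, edgeR adjusted p = 0.0835). Lum, the collagen-binding proteoglycan lumican, read 63.9, 69.2, 129 and 58.9 CPM against 39.4, 30.9, 32.5 and 38.1 CPM (-1.18 ± 0.26, edgeR adjusted p = 0.0836). Neither overlapped between groups, and neither was called. The list therefore showed no common direction.

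Blood vessel endothelium leaned upward, with 15 of 20 genes above 0 and a median of 0.13, but no gene was called and the library means overlapped (6.001 to 6.30 against 6.13 to 6.39 log2 CPM). Without KO vehicle 1 the median was 0.01. Gpihbp1, which holds lipoprotein lipase on capillaries, read 131, 134, 160 and 193 CPM in WT vehicle and 231, 220, 213 and 213 CPM in KO vehicle (0.50 ± 0.15, edgeR adjusted p = 0.165). Vwf, the clotting factor carrier, went the other way at 35.0, 28.2, 33.8 and 24.96 against 22.5, 21.9, 20.04 and 28.3 CPM (-0.39 ± 0.15, edgeR adjusted p = 0.287). Pericytes (6 of 8 genes below 0, median -0.13), lymphatic endothelium (3 of 6, -0.06) and mesothelium (11 of 14, -0.16) had no called gene.

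Muscle markers gave the lowest medians of any list, and the level varied widely within groups. All 14 smooth muscle genes lay below 0 (median -1.35), with none called. Library means were 4.91, 7.46, 7.91 and 7.28 log2 CPM in WT vehicle and 5.19, 5.31, 5.29 and 6.53 in KO vehicle. WT vehicle 1 was below all 4 KO vehicle libraries, and the other 3 WT vehicle libraries were above them. Mylk, the kinase that starts smooth muscle contraction, read 367, 1432, 1585 and 1309 CPM against 298, 410, 495 and 836 CPM (-1.20 ± 0.47, edgeR adjusted p = 0.319). Without WT vehicle 1 the list's median was -1.64, and within the lower number series it was -0.91. Skeletal muscle genes (9 of 10 below 0, median -1.30) were sparse and also varied by library: Ckm, muscle creatine kinase, read 3.54, 11.3, 1.98 and 11.3 CPM against 0, 2.58, 0.113 and 1.73 CPM. The 1 member above 0 stood at 0.79. Summed CPM of the list showed no fall, at 96.2, 167, 23.4 and 165 in WT vehicle against 118, 130, 146 and 106 in KO vehicle. Without KO vehicle 2 the median of the skeletal muscle list was -2.54.

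The immune marker lists held no called gene. Monocyte and neutrophil genes stood 6 of 8 below 0 (median -0.36), with 1 lower without overlap; the median was -0.19 without KO vehicle 3 and -0.62 without KO vehicle 4. Of 17 general macrophage genes, 14 lay above 0 (median 0.15), and 3 did not overlap between groups (median 0.097 without KO vehicle 4). Cd68, a lysosomal protein of macrophages, read 20.6, 25.4, 20.8 and 26.9 CPM in WT vehicle and 39.7, 47.6, 31.5 and 35.2 CPM in KO vehicle (0.72 ± 0.20, edgeR adjusted p = 0.146). C1qa, the complement subunit made by tissue macrophages, overlapped, with 349 to 412 CPM against 372 to 551 CPM. The resident macrophage list stood near 0 (8 of 14 above, median 0.04), and the lipid-associated list at 8 of 13 above (0.21), though the latter shares genes such as Lpl and Cd36 with adipocytes. In the same list, Itgax, the integrin CD11c, read 1.45, 0.965, 0.898 and 1.52 CPM in WT vehicle and 4.45, 5.69, 3.83 and 3.76 CPM in KO vehicle. The groups were well apart, yet the gene did not pass (1.84 ± 0.38, edgeR adjusted p = 0.0597).

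Lymphocytes were near the limit of this depth. Of 10 T cell genes, 9 lay above 0 (median 0.32), with library means of 0.43 to 1.93 log2 CPM in WT vehicle and 0.74 to 2.06 in KO vehicle. No T cell gene was called. Without WT vehicle 3 the median was 0.11, and without WT vehicle 4 it was 0.73. Foxp3, which defines regulatory T cells, was at 0 in 3 KO vehicle libraries with 4 counts in KO vehicle 4, and in WT vehicle only WT vehicle 4 held any, with 1 count. Other genes used by regulatory T cells went both ways: Il2ra, the high-affinity IL-2 receptor chain, read 3.46, 3.64, 4.49 and 4.18 CPM against 2.17, 1.55, 0.901 and 2.23 CPM (-1.18 ± 0.34, edgeR adjusted p = 0.149). Icos, a T cell costimulator, read 1.37, 0.965, 0.539 and 1.01 CPM against 1.37, 2.998, 1.80 and 4.16 CPM (1.35 ± 0.43, edgeR adjusted p = 0.18). Mast cell and eosinophil genes stood 5 of 7 below 0 (median -0.66); the mast cell tryptase Tpsb2 read 2.73, 3.75, 6.29 and 4.05 CPM against 1.94, 1.76, 1.58 and 2.44 CPM (-1.09 ± 0.36, edgeR adjusted p = 0.2). These Tpsb2 values rest on 14 to 35 counts per vehicle library.

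Secreted proteins that act on collagen and matrix held the smallest adjusted p. Matrix processing enzymes stood 21 of 30 above 0 (median 0.27), with 2 called higher and 7 higher and 1 lower without overlap. Library means were 5.47, 5.58, 5.65 and 5.54 log2 CPM in WT vehicle and 5.90, 5.93, 5.84 and 5.90 in KO vehicle, so all 4 KO vehicle libraries lay above all 4 WT vehicle libraries. Pcolce2 (chromosome 9, 95637601 to 95698096, mm10), which enhances the trimming of procollagen, read 29.6, 32.5, 33.6 and 25.2 CPM in WT vehicle and 58.3, 60.1, 64.5 and 64.3 CPM in KO vehicle. The KO vehicle libraries were all higher and close to each other (log2 fold change 1.03 ± 0.13 SE, edgeR adjusted p = 0.00732). Htra3 (chromosome 5, 35652023 to 35679782), a secreted serine protease known from the pregnant uterus, read 177, 182, 195 and 181 CPM against 594, 511, 363 and 321 CPM. Its WT vehicle values were nearly equal, and KO vehicle 1 and 2 were the highest (1.28 ± 0.19, edgeR adjusted p = 0.0198; 1.11 without KO vehicle 1).

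Further members of the list lay higher without passing. Tgm2, the crosslinking enzyme transglutaminase 2, read 780, 694, 715 and 740 CPM in WT vehicle and 2062, 1655, 1982 and 1598 CPM in KO vehicle (1.32 ± 0.32, edgeR adjusted p = 0.108). Mmp9, a gelatinase, read 39.6, 39.2, 35.6 and 49.7 CPM against 55.4, 55.7, 68.0 and 105 CPM (0.79 ± 0.18, edgeR adjusted p = 0.0836). Timp2, a metalloproteinase inhibitor, overlapped (-0.13 ± 0.15, edgeR adjusted p = 0.789).

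Other extracellular proteins among the called genes were Srpx2, Sod3 and Mfge8 on the higher side and Sparcl1 on the lower. Srpx2, a secreted sushi-repeat protein linked to vessel sprouting, read 15.9, 18.01, 20.1 and 18.8 CPM in WT vehicle and 42.5, 35.4, 49.6 and 40.4 CPM in KO vehicle (1.21 ± 0.20, edgeR adjusted p = 0.0216). Sod3, the extracellular superoxide dismutase, read 183, 134, 156 and 192 CPM against 402, 252, 374 and 296 CPM (0.99 ± 0.17, edgeR adjusted p = 0.027; 0.88 without KO vehicle 1). Mfge8, a bridge between dying cells and phagocytes, read 811, 917, 663 and 934 CPM against 1645, 1408, 1749 and 1363 CPM (0.89 ± 0.17, edgeR adjusted p = 0.0414). In all of these, every KO vehicle library lay above every WT vehicle library. Sparcl1, a SPARC-like glycoprotein of vessels and stroma, fell from 359, 419, 500 and 467 CPM to 260, 280, 259 and 255 CPM (-0.73 ± 0.14, edgeR adjusted p = 0.0414). Its relative Sparc went the other way, at 1364, 2433, 2132 and 1843 CPM against 3940, 2766, 3219 and 2691 CPM, without passing (0.70 ± 0.18, edgeR adjusted p = 0.111). The call of Pcolce2 held whichever library was left out (highest edgeR adjusted p 0.029). That of Htra3 ended when KO vehicle 1 or 2 or WT vehicle 3 was dropped (highest 0.0646), and those of Srpx2, Sod3, Mfge8 and Sparcl1 when any KO vehicle library or WT vehicle 2 or 3 was dropped (highest 0.0731, 0.13, 0.159 and 0.146). Dropping KO Treg 4 also ended those of Sod3 and Sparcl1, and dropping KO Treg 3 or 4 or WT vehicle 1 that of Mfge8.

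Among collagen chains, 13 of 19 lay above 0 (median 0.22), 1 did not overlap and none was called. The median was 0.10 without WT vehicle 1, 0.12 without KO vehicle 4 and 0.13 without WT vehicle 4. The basement membrane chain Col4a2 read 127, 184, 189 and 163 CPM in WT vehicle and 251, 206, 241 and 220 CPM in KO vehicle (0.47 ± 0.16, edgeR adjusted p = 0.217). Its partner Col4a1 overlapped (0.29 ± 0.16, edgeR adjusted p = 0.485). Matrix glycoproteins stood 14 above and 11 below 0 (median 0.10), with Mfge8 called higher and Sparcl1 called lower.

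Caveolae and membrane repair had the highest median of all lists. Of 12 genes tested, 10 lay above 0 (median 0.50), 2 were called higher and 4 did not overlap. Library means were 7.06, 7.33, 7.39 and 7.29 log2 CPM in WT vehicle and 7.84, 7.57, 7.77 and 7.76 in KO vehicle. The median was 0.49 without KO vehicle 1, 0.40 without WT vehicle 1 and 0.67 within the lower number series. Anxa2, a calcium-dependent membrane-binding annexin, read 481, 510, 684 and 573 CPM in WT vehicle and 1624, 1065, 1031 and 961 CPM in KO vehicle. KO vehicle 1 stood above the other KO vehicle libraries, and no library overlapped (1.06 ± 0.21, edgeR adjusted p = 0.0437). Without KO vehicle 1 it was 0.85 with an edgeR adjusted p of 0.133.

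Dysf encodes dysferlin, which reseals torn plasma membrane. It read 30.9, 28.3, 24.8 and 33.4 CPM in WT vehicle and 51.8, 55.1, 51.1 and 52.2 CPM in KO vehicle (0.84 ± 0.15, edgeR adjusted p = 0.0322). The KO vehicle libraries were almost identical. Ptrf (cavin 1), the coat protein that adipocytes need to form caveolae, read 3766, 3620, 3161 and 4060 CPM against 6608, 5154, 5987 and 5828 CPM, without overlap but short of the threshold (0.69 ± 0.16, edgeR adjusted p = 0.0836). Sdpr (cavin 2) overlapped, with 762 to 973 CPM against 967 to 1373 CPM (0.44 ± 0.20, edgeR adjusted p = 0.389). Leaving out any KO vehicle library or WT vehicle 1, 2 or 3 ended the calls of Anxa2 and Dysf (highest edgeR adjusted p 0.133 and 0.134), as did KO Treg 4 for both and KO Treg 2 or 3 for Anxa2. Exons of both genes overlap a gene on the opposite strand.

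Cytoskeletal genes also leaned upward. Tubulins stood 10 of 14 above 0 (median 0.20, 1 called, 3 without overlap), and actin and focal adhesion genes 16 of 20 above (0.17, 1 called, 3 without overlap). Tuba1a, an alpha-tubulin of growing cells, read 220, 378, 179 and 220 CPM in WT vehicle and 601, 586, 764 and 722 CPM in KO vehicle. All KO vehicle libraries were above the highest, WT vehicle 2 (1.42 ± 0.26, edgeR adjusted p = 0.0403). Exons of Tuba1a overlap Gm49450 on the same strand, so its reads are uncertain. Tubb2a, a beta-tubulin, read 38.4, 61.8, 50.7 and 43.8 CPM against 62.3, 103, 73.2 and 86.7 CPM and did not pass (0.74 ± 0.24, edgeR adjusted p = 0.191). Tpm4, a tropomyosin of non-muscle actin filaments, rose from 65.0, 80.6, 74.9 and 84.6 CPM to 154, 147, 117 and 116 CPM (0.81 ± 0.15, edgeR adjusted p = 0.0403; 0.73 without KO vehicle 1). Nedd9, an adhesion scaffold protein, rose from 20.5, 16.6, 12.4 and 18.8 CPM to 43.8, 43.3, 28.6 and 33.5 CPM (1.12 ± 0.19, edgeR adjusted p = 0.0239; 1.03 without KO vehicle 1). Dcbld2, a receptor-like membrane protein, rose from 20.8, 24.7, 25.5 and 26.4 CPM to 72.3, 54.5, 47.4 and 45.5 CPM (1.18 ± 0.19, edgeR adjusted p = 0.0216; 1.01 without KO vehicle 1). In these, the groups were apart in every library, with KO vehicle 1 the highest for Tpm4, Nedd9 and Dcbld2. Dropping KO vehicle 1, 2 or 4 or WT vehicle 3 ended each of the 4 calls (highest edgeR adjusted p between 0.0837 for Dcbld2 and 0.146 for Tpm4). Those of Nedd9 and Dcbld2 also ended with WT vehicle 2 dropped, that of Tuba1a with KO vehicle 3, WT vehicle 1 or KO Treg 3 or 4 dropped, and that of Tpm4 with any of these 5 dropped. Exons of Tpm4, Nedd9 and Dcbld2 overlap a gene on the opposite strand.

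Cell cycle genes were weakly expressed and lay higher in KO vehicle. Of 27 tested, 24 lay above 0 (median 0.26), 2 were called higher and 5 did not overlap. Library means were 1.78, 1.62, 1.67 and 1.58 log2 CPM in WT vehicle and 2.30, 2.14, 1.98 and 1.99 in KO vehicle, with every KO vehicle library above every WT vehicle library. The median was 0.27 without KO vehicle 1, 0.42 without KO vehicle 2 and 0.46 without WT vehicle 2. Genes of DNA replication stood nearer to 0 (15 of 24 above, median 0.04, none called). Cdk1, the kinase that drives entry into mitosis, read 4.82, 4.50, 3.59 and 5.95 CPM in WT vehicle and 9.02, 8.58, 13.3 and 12.6 CPM in KO vehicle (1.19 ± 0.22, edgeR adjusted p = 0.0403). Dsn1, a kinetochore subunit that ties chromosomes to the spindle, read 2.09, 2.25, 2.34 and 3.29 CPM against 7.65, 8.58, 5.63 and 7.21 CPM (1.55 ± 0.26, edgeR adjusted p = 0.0239). Ccnb1, the cyclin partner of Cdk1, was sparser at 0.482, 0.214, 0.359 and 0.380 CPM against 1.48, 1.14, 1.13 and 1.42 CPM, with no overlap and no call (1.78 ± 0.46, edgeR adjusted p = 0.108). Cks1b, a small Cdk-binding protein, overlapped (0.40 ± 0.20, edgeR adjusted p = 0.452). The calls of Cdk1 and Dsn1 ended when KO vehicle 1, 2 or 4 or any of WT vehicle 1 to 3 was dropped, and for Cdk1 also KO vehicle 3 or KO Treg 4 (highest edgeR adjusted p 0.144 and 0.0968).

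Promoters of both called genes are shown because mitotic genes are known for a shared promoter element, the cell cycle homology region (CHR, searched as TTTGAA), often beside CCAAT boxes (searched as CCAAT). The sequences are the 250 bases before the RefSeq start (GRCm38.p6), 5′ to 3′ on the gene's minus strand, with matches to either motif on either strand in capitals.
Cdk1, chr10:69352913-69353162: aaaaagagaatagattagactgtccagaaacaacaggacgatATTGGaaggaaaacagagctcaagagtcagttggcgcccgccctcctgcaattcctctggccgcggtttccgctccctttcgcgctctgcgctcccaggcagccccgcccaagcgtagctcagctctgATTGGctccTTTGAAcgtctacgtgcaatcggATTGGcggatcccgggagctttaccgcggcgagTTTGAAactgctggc
Dsn1, chr2:157007076-157007325: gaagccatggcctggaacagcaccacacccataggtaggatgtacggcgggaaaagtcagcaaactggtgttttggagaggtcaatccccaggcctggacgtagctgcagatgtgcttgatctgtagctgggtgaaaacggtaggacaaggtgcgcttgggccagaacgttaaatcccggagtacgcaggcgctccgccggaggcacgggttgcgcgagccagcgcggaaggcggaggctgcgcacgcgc
The Cdk1 promoter holds 2 CHR matches, which begin 71 and 15 bases before the start, and 3 CCAAT matches, all on the opposite strand (read as ATTGG). The Dsn1 window holds neither. GENCODE places the 5′ end of Dsn1 at 157007154 and that of Cdk1 at 69352938, each inside its printed window. Part of each window therefore lies within the gene as GENCODE annotates it. Over windows of 300 bases (250 before to 50 after the start), TTTGAA occurs in 17.9% and CCAAT in 37.4% of the 32851 RefSeq promoters read, and both in 6.95%. Of the 27 cell cycle genes tested, 23 matched a RefSeq promoter, of which the first listed was read for each gene; TTTGAA occurs in 16 of them (69.6%) and CCAAT in 19 (82.6%). These letters describe the genes of the list, whether or not they differed between groups.

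Hippo and YAP target genes stood 9 of 12 above 0 (median 0.22, 1 called, 2 without overlap). YAP and TAZ are coactivators that carry signals from cell tension to TEAD factors on DNA. Library means were 4.04, 4.24, 4.32 and 4.37 log2 CPM in WT vehicle and 4.67, 4.45, 4.43 and 4.65 in KO vehicle. The gap between WT vehicle 4 and KO vehicle 3 was the narrowest. These means include the called gene Vgll3, at 4.81 CPM in WT vehicle 4 and 11.9 CPM in KO vehicle 3. The groups do not stay apart without it: averaged over the other tested genes, KO vehicle 2 and KO vehicle 3 fall below WT vehicle 4. Vgll3, a TEAD cofactor known to restrain adipocyte differentiation, read 3.38, 5.04, 6.47 and 4.81 CPM in WT vehicle and 17.7, 12.6, 11.9 and 12.9 CPM in KO vehicle (1.51 ± 0.25, edgeR adjusted p = 0.0216). KO vehicle 1 was the highest; without it the log2 fold change was 1.36 with an edgeR adjusted p of 0.0672. Dropping KO vehicle 1, 2 or 4 or WT vehicle 2 or 3 ended the call (highest edgeR adjusted p 0.0731). Amotl2, a YAP-binding target gene, read 57.5, 78.1, 63.2 and 80.2 CPM against 112, 82.2, 110 and 97.2 CPM and did not pass (0.52 ± 0.15, edgeR adjusted p = 0.159). Tead1 overlapped (0.56 ± 0.19, edgeR adjusted p = 0.211). Without KO vehicle 1 the list's median was 0.17, and within the lower number series it was 0.38.

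The largest rises among called genes were in weakly expressed genes. Cyb5r2, a cytochrome b5 reductase, had 11 counts over the 4 WT vehicle libraries and 123 over the 4 KO vehicle libraries. This is a ratio of 10.6 after scaling (exact 95% interval 5.72 to 21.8, counting error only; edgeR adjusted p = 0.0239). Got1l1, a relative of aspartate aminotransferase, had 32 against 210 counts, a ratio of 6.22 (exact 95% interval 4.27 to 9.33; edgeR adjusted p = 0.0216). Zfyve28, an endosomal protein that limits EGF receptor signalling, read 2.17, 0.965, 1.44 and 2.28 CPM against 16.9, 8.68, 8.22 and 9.14 CPM (2.62 ± 0.43, edgeR adjusted p = 0.0239). KO vehicle 1 was the highest of its group by far, and without it the log2 fold change was 2.31 with an edgeR adjusted p of 0.0672. Exons of Cyb5r2 and Zfyve28 overlap another gene on the opposite strand, and no source used here gives the strand setting of the counts. Ptafr, the receptor of platelet-activating factor on leukocytes, rose from 3.62, 4.29, 6.11 and 4.31 CPM to 8.68, 8.48, 9.57 and 9.85 CPM (1.02 ± 0.20, edgeR adjusted p = 0.0447). Dropping KO vehicle 1, 2 or 4 or WT vehicle 3 ended the calls of these 4 genes (highest edgeR adjusted p 0.0968, 0.0731, 0.11 and 0.149). That of Cyb5r2 also ended with KO vehicle 3 or WT vehicle 1 dropped, that of Zfyve28 with WT vehicle 2 dropped, and that of Ptafr with any library dropped but KO Treg 1 and WT vehicle 4.

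Of the remaining called genes that rose, Lhfpl2, a tetraspan membrane protein, read 85.5, 96.0, 82.5 and 131 CPM in WT vehicle and 267, 251, 174 and 207 CPM in KO vehicle (1.19 ± 0.22, edgeR adjusted p = 0.0403; 1.09 without KO vehicle 1). Cdr2, a cytoplasmic protein known as an autoantigen, read 8.12, 20.1, 14.2 and 15.3 CPM against 46.1, 36.3, 32.4 and 28.5 CPM (1.32 ± 0.25, edgeR adjusted p = 0.0437; 1.17 without KO vehicle 1). Hn1l rose by 1.37 (edgeR adjusted p = 0.0267; 1.24 without KO vehicle 1). Smaller rises were those of the ubiquitin ligase Mycbp2, the chromatin protein Morf4l2 and Klhdc8b, each with a log2 fold change of 0.69 and an edgeR adjusted p between 0.0414 and 0.0487; for Morf4l2 it was 0.64 without KO vehicle 1. Groups did not overlap in any of these. Leaving out KO vehicle 1, 2 or 4, WT vehicle 1, WT vehicle 3 or KO Treg 4 ended each of these 6 calls (highest edgeR adjusted p between 0.117 for Hn1l and 0.161 for Klhdc8b). KO vehicle 3 ended all but that of Mycbp2, WT vehicle 2 all but that of Cdr2, KO Treg 3 all but that of Hn1l, KO Treg 2 those of Cdr2, Morf4l2 and Klhdc8b, and WT vehicle 4 that of Klhdc8b. Exons of Morf4l2 overlap BC065397 and those of Klhdc8b overlap Ccdc71, each on the opposite strand.

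**Figure D4:**
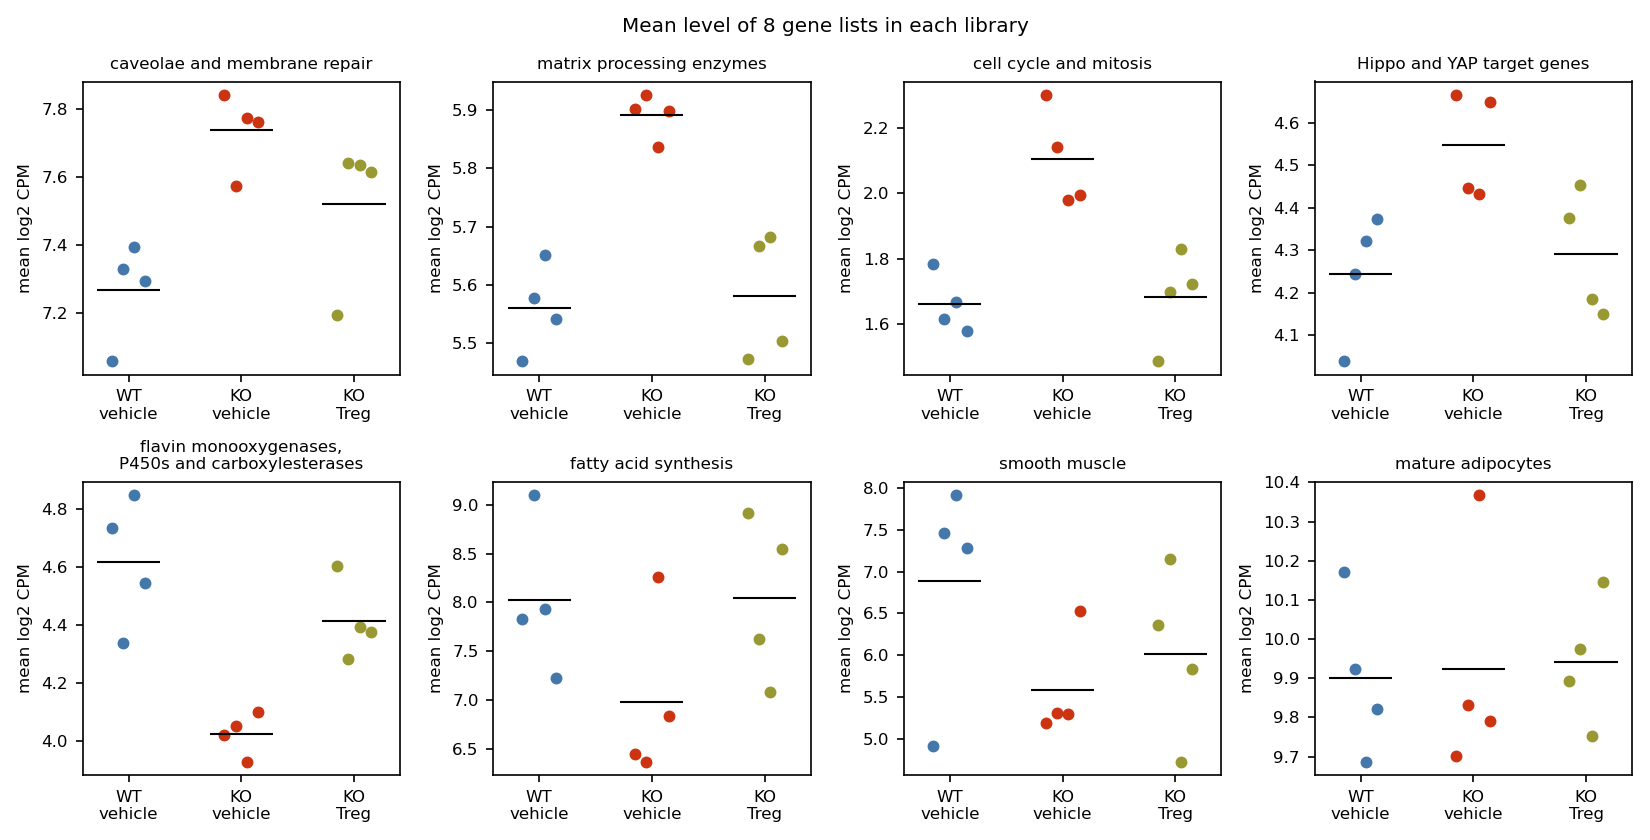
Mean log2 CPM of the tested genes of 8 lists in each library (points, replicates 1 to 4 from left to right) with the group mean as a line; each panel has its own vertical axis. The first 4 lists are higher and the fifth is lower in all 4 KO vehicle libraries than in WT vehicle, while fatty acid synthesis, smooth muscle and mature adipocyte genes overlap between groups.

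On the lower side, flavin monooxygenases, P450s and carboxylesterases formed the list whose library means did not overlap. Of its 16 genes tested, 14 lay below 0 (median -0.41), 2 were called lower and 3 did not overlap. Library means were 4.74, 4.34, 4.85 and 4.55 log2 CPM in WT vehicle and 4.02, 4.05, 3.93 and 4.10 in KO vehicle. Fmo1 (chromosome 1, 162829561 to 162866610), a flavin monooxygenase that oxidises amines, read 91.8, 97.2, 100 and 114 CPM in WT vehicle and 61.5, 57.6, 51.4 and 55.2 CPM in KO vehicle. Both groups were tight and apart (-0.84 ± 0.12, edgeR adjusted p = 0.0198). Cyp2f2, a P450 best known from lung, had 90 counts over the WT vehicle libraries and 6 over the KO vehicle libraries, with 1 or 2 counts in each of the latter. The scaled ratio of WT to KO was 15.8 (exact 95% interval 6.99 to 44.3, counting error only; edgeR adjusted p = 0.0216), and an exon overlaps Gm15883 on the opposite strand. Cyp2e1, the ethanol-inducible P450, read 358, 294, 529 and 494 CPM against 275, 180, 158 and 180 CPM without passing (-1.08 ± 0.23, edgeR adjusted p = 0.0756). Ces1d, a carboxylesterase that acts on stored triglyceride, overlapped (-0.88 ± 0.28, edgeR adjusted p = 0.194). The calls of Fmo1 and Cyp2f2 ended when KO vehicle 1, 2 or 4 or WT vehicle 3 was dropped, and for Cyp2f2 also KO vehicle 3 (edgeR adjusted p up to 0.0731 and 0.0735). The median of the list was -0.70 without KO vehicle 4 and -0.68 within the lower number series.

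Hormone and prostaglandin signalling genes held 2 of the largest falls. Ptger3, the inhibitory prostaglandin E receptor through which fat cells curb lipolysis, read 278, 416, 389 and 209 CPM in WT vehicle and 98.7, 94.6, 130 and 103 CPM in KO vehicle (-1.60 ± 0.30, edgeR adjusted p = 0.0447). All KO vehicle libraries were at or under 130 CPM. Its list of prostaglandin genes had no common direction (8 of 15 above 0, median 0.03), with 3 others higher without overlap and none of those called. Greb1, an estrogen-induced gene, read 5.31, 10.2, 11.5 and 5.83 CPM against 3.42, 2.38, 1.35 and 1.42 CPM (-1.92 ± 0.36, edgeR adjusted p = 0.0403), and an exon overlaps Gm48140 on the opposite strand. Pgr, the progesterone receptor and another estrogen-induced gene, read 0.885, 9.65, 11.9 and 2.53 CPM against 0.571, 2.27, 0.901 and 2.34 CPM. It was high in WT vehicle 2 and 3, and the groups overlapped (-1.96 ± 0.75, edgeR adjusted p = 0.298). The steroid receptor and pregnancy hormone list stood 12 of 19 below 0 (median -0.17, 1 called). Dropping any KO vehicle library, WT vehicle 2 or 3 or KO Treg 4 ended the calls of Ptger3 and Greb1, and for Ptger3 also WT vehicle 1 or KO Treg 3 (highest edgeR adjusted p 0.175 and 0.134).

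Metabolic genes among the called falls were Bcat2 and Apoc1. Bcat2, the mitochondrial aminotransferase that starts branched-chain amino acid breakdown, read 49.4, 27.8, 58.6 and 51.9 CPM in WT vehicle and 15.5, 16.5, 22.4 and 26.1 CPM in KO vehicle (-1.21 ± 0.23, edgeR adjusted p = 0.0403; -1.12 without KO vehicle 1). WT vehicle 2 and KO vehicle 4 came close to each other without overlapping, and an exon overlaps 0610005C13Rik on the opposite strand. The other genes of that pathway stood mostly below 0 (17 of 23 with Bcat2, median -0.26). Acadsb, a later enzyme of the pathway, read 176, 180, 202 and 150 CPM against 128, 96.7, 146 and 137 CPM without passing (-0.48 ± 0.14, edgeR adjusted p = 0.157). Abat, GABA transaminase, which also handles valine intermediates, went the other way at 12.1, 14.5, 12.6 and 25.2 CPM against 89.0, 45.0, 39.6 and 39.6 CPM, again without passing (1.73 ± 0.34, edgeR adjusted p = 0.0626). Apoc1, an apolipoprotein that slows lipoprotein clearance, read 312, 216, 369 and 443 CPM against 169, 191, 151 and 190 CPM (-0.94 ± 0.18, edgeR adjusted p = 0.0447; -0.60 within the lower number series). Its neighbour in function Apoc2, the activator of lipoprotein lipase, read 12.6, 18.9, 14.7 and 17.0 CPM against 7.99, 12.1, 7.77 and 9.65 CPM (-0.75 ± 0.18, edgeR adjusted p = 0.101).

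Also lower were Serpina3m, Cpe and Tmem38a. Serpina3m, a serine protease inhibitor, had 124 counts over the WT vehicle libraries and 11 over the KO vehicle libraries, a scaled ratio of WT to KO of 11.9 (exact 95% interval 6.42 to 24.4, counting error only; edgeR adjusted p = 0.0264). It belongs to a family of near-identical genes and shares exon positions with Serpina3k on its strand, so its reads are uncertain. Cpe, a carboxypeptidase that matures peptide hormones, read 32.2, 48.1, 63.6 and 57.5 CPM against 23.7, 20.4, 24.9 and 30.1 CPM (-1.02 ± 0.20, edgeR adjusted p = 0.0447). WT vehicle 1 lay just above KO vehicle 4. Tmem38a, a channel of the muscle endoplasmic reticulum, fell from 8.76, 7.18, 7.91 and 8.996 CPM to 4.45, 3.83, 4.84 and 4.37 CPM (-0.91 ± 0.18, edgeR adjusted p = 0.0487). The 5 calls of Bcat2, Apoc1, Serpina3m, Cpe and Tmem38a ended when any KO vehicle library or WT vehicle 3 was dropped (highest edgeR adjusted p 0.134, 0.151, 0.0931, 0.159 and 0.133). WT vehicle 1 also ended those of Bcat2, Apoc1 and Tmem38a, WT vehicle 2 those of Serpina3m, Cpe and Tmem38a, WT vehicle 4 that of Tmem38a, KO Treg 2 those of Bcat2, Cpe and Tmem38a, and KO Treg 3 or 4 those of Apoc1, Cpe and Tmem38a.

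Lipid synthesis genes lay lower in 3 of the 4 KO vehicle libraries, with wide differences within groups. All 19 fatty acid synthesis genes lay below 0 (median -0.997), none was called and 3 did not overlap. Library means were 7.83, 9.10, 7.93 and 7.22 log2 CPM in WT vehicle and 6.44, 6.37, 8.26 and 6.84 in KO vehicle. KO vehicle 3 lay above 3 of the WT vehicle libraries, and the other 3 KO vehicle libraries lay below all of them. Fasn, fatty acid synthase, read 6994, 18138, 10009 and 2141 CPM in WT vehicle and 558, 778, 12524 and 2025 CPM in KO vehicle (-1.23 ± 1.10, edgeR adjusted p = 0.72). Mlxipl, the glucose-responsive factor ChREBP, did not overlap, at 234, 446, 231 and 193 CPM against 104, 140, 181 and 128 CPM (-0.997 ± 0.27, edgeR adjusted p = 0.146). Scd1, the desaturase that makes oleic acid, read 7569, 10354, 3812 and 4233 CPM against 2717, 1822, 8008 and 3218 CPM, with KO vehicle 3 again apart from its group (-0.72 ± 0.54, edgeR adjusted p = 0.659). Without WT vehicle 2 the list's median was -0.42, and without KO vehicle 3 it was -1.34.

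Mitochondrial and sugar pathways showed small differences, mostly below 0. The TCA cycle stood 23 of 25 below 0 (median -0.37), complex I subunits 35 of 37 (-0.20), complex II and III 13 of 13 (-0.29), complex IV 12 of 12 (-0.15), ATP synthase 15 of 15 (-0.20), and glycolysis 15 of 19 (-0.33). None of these genes was called, and their library means overlapped between groups. Without WT vehicle 1 the medians were -0.075 for complex I, -0.14 for complex II and III, -0.023 for complex IV and -0.090 for ATP synthase. Without KO vehicle 3 they were -0.35, -0.46, -0.33 and -0.35, and without KO vehicle 1 those of complex I, complex IV and ATP synthase were -0.099, -0.083 and -0.13. The glycolysis median was -0.19 without WT vehicle 2, and that of complex IV -0.24 without WT vehicle 4. For the TCA cycle the means were 7.95, 7.64, 7.31 and 7.30 log2 CPM in WT vehicle and 7.07, 7.20, 7.61 and 7.01 in KO vehicle, with KO vehicle 3 again high. The Ucp1-rich WT vehicle 1 was highest; without it the TCA median was -0.23. Mdh1, the cytosolic malate dehydrogenase of the shuttle that carries reducing power, read 496, 484, 488 and 437 CPM against 295, 296, 365 and 288 CPM (-0.62 ± 0.14, edgeR adjusted p = 0.0819). Cytosolic ribosomal protein genes stood 41 of 42 below 0 at a median of -0.13, and that median was -0.03 within the lower number series.

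Clock genes stood 14 of 18 below 0 (median -0.41), none called and none without overlap. The circadian clock sets daily rhythms of metabolism in fat, and no source used here gives the hour of collection. Per3, a period gene, read 25.5, 14.9, 17.97 and 9.50 CPM in WT vehicle and 12.6, 6.82, 11.9 and 5.99 CPM in KO vehicle (-0.87 ± 0.35, edgeR adjusted p = 0.309). Library means of the list overlapped narrowly, at 4.12 to 4.62 against 3.93 to 4.13 log2 CPM.

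Stress and secretion lists leaned upward without a called gene. The unfolded protein response stood 20 of 25 above 0 (median 0.24, 4 without overlap), the secretory pathway 24 of 28 (0.14, 4 without overlap) and p53 targets 11 of 15 (0.30, 2 without overlap). Hspa5, the main chaperone of the endoplasmic reticulum, read 1105, 1218, 796 and 1291 CPM in WT vehicle and 1660, 1998, 1378 and 1560 CPM in KO vehicle (0.58 ± 0.17, edgeR adjusted p = 0.157). Cdkn1a, the cell cycle inhibitor p21, read 63.0, 27.2, 24.1 and 45.7 CPM against 96.5, 96.8, 65.5 and 90.1 CPM (1.11 ± 0.35, edgeR adjusted p = 0.189). Neither overlapped, though KO vehicle 3 came close to the highest WT vehicle library in both. Sec22b, a SNARE of vesicle traffic out of the endoplasmic reticulum, read 64.8, 77.4, 54.8 and 83.2 CPM against 124, 99.8, 108 and 95.8 CPM (0.61 ± 0.14, edgeR adjusted p = 0.0836). The median of the unfolded protein response was 0.14 without WT vehicle 3, and that of the secretory pathway 0.074 without KO vehicle 1 and 0.075 without WT vehicle 1. Chemokines stood 10 of 17 above 0 (0.19, 3 without overlap). Their median was 0.38 without KO vehicle 1, 0.055 without KO vehicle 2, 0.11 without WT vehicle 2 and 0.53 without WT vehicle 4, and it was -0.074 with the filter at 20 counts. Cxcl9, induced by interferon gamma, read 53.6, 53.6, 50.1 and 55.2 CPM against 68.2, 77.5, 81.8 and 82.2 CPM (0.54 ± 0.16, edgeR adjusted p = 0.165). All 8 MHC class II genes lay above 0 (0.27) with overlapping groups; their median was 0.15 without KO vehicle 4 or WT vehicle 3, 0.18 without WT vehicle 1, 0.43 without KO vehicle 1 and 0.46 without WT vehicle 4. Interferon-stimulated genes (11 of 28 above, -0.05), lysosome genes (13 of 24, 0.02), MHC class I (7 of 13, 0.00) and insulin signalling (4 of 18, -0.06) had medians near 0.

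Several genes differed more than most called ones yet missed the threshold, with wide spread between libraries. Sfrp5, a secreted WNT inhibitor of expanding fat cells, read 11.3, 11.8, 4.13 and 45.7 CPM in WT vehicle and 385, 169, 232 and 172 CPM in KO vehicle (3.71 ± 0.76, edgeR adjusted p = 0.0925; 3.38 without KO vehicle 1). Mest, an imprinted gene tied to fat cell growth, read 6.59, 42.1, 8.09 and 88.3 CPM against 778, 370, 209 and 161 CPM (3.38 ± 0.98, edgeR adjusted p = 0.187; 2.76 without KO vehicle 1). Nnat, another imprinted gene, read 109, 35.2, 92.4 and 101 CPM against 679, 565, 613 and 616 CPM (2.87 ± 0.72, edgeR adjusted p = 0.149). For all 3 genes every KO vehicle library lay above every WT vehicle library, and Nnat varied least within KO vehicle. Prr32 read 1.85, 1.39, 1.08 and 5.45 CPM against 20.8, 11.4, 16.5 and 20.2 CPM (2.81 ± 0.54, edgeR adjusted p = 0.0626). Cxcl10, a chemokine for T cells, read 1.69, 0.429, 0.359 and 1.27 CPM against 5.37, 3.41, 3.83 and 7.41 CPM (2.31 ± 0.69, edgeR adjusted p = 0.169). Both were weakly expressed in WT vehicle, and all KO vehicle libraries lay above it.

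Among large differences below 0, Lcn2, an iron-siderophore carrier of inflamed tissue and neutrophils, read 6.51, 3.22, 10.1 and 24.7 CPM in WT vehicle and 0.685, 2.17, 1.35 and 1.52 CPM in KO vehicle (-2.92 ± 0.62, edgeR adjusted p = 0.0836). Cspg5, a neural proteoglycan, read 2.57, 10.9, 9.70 and 2.41 CPM against 0.685, 0.620, 1.35 and 1.32 CPM (-2.65 ± 0.71, edgeR adjusted p = 0.149). Rgs2, a brake on G protein signalling, read 174, 155, 156 and 94.6 CPM against 27.2, 56.2, 55.5 and 72.3 CPM (-1.46 ± 0.32, edgeR adjusted p = 0.0836). The groups did not overlap in any of these. Usp2, a clock-driven deubiquitinase, read 52.8, 21.3, 28.7 and 16.6 CPM against 14.0, 11.3, 7.20 and 6.91 CPM (-1.61 ± 0.38, edgeR adjusted p = 0.104). Isyna1, the enzyme of inositol synthesis, read 18.3, 47.5, 48.2 and 15.3 CPM against 8.22, 9.82, 15.1 and 8.63 CPM (-1.62 ± 0.47, edgeR adjusted p = 0.174). In both, the lowest WT vehicle library came close to the highest KO vehicle library.

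**Figure D5:**
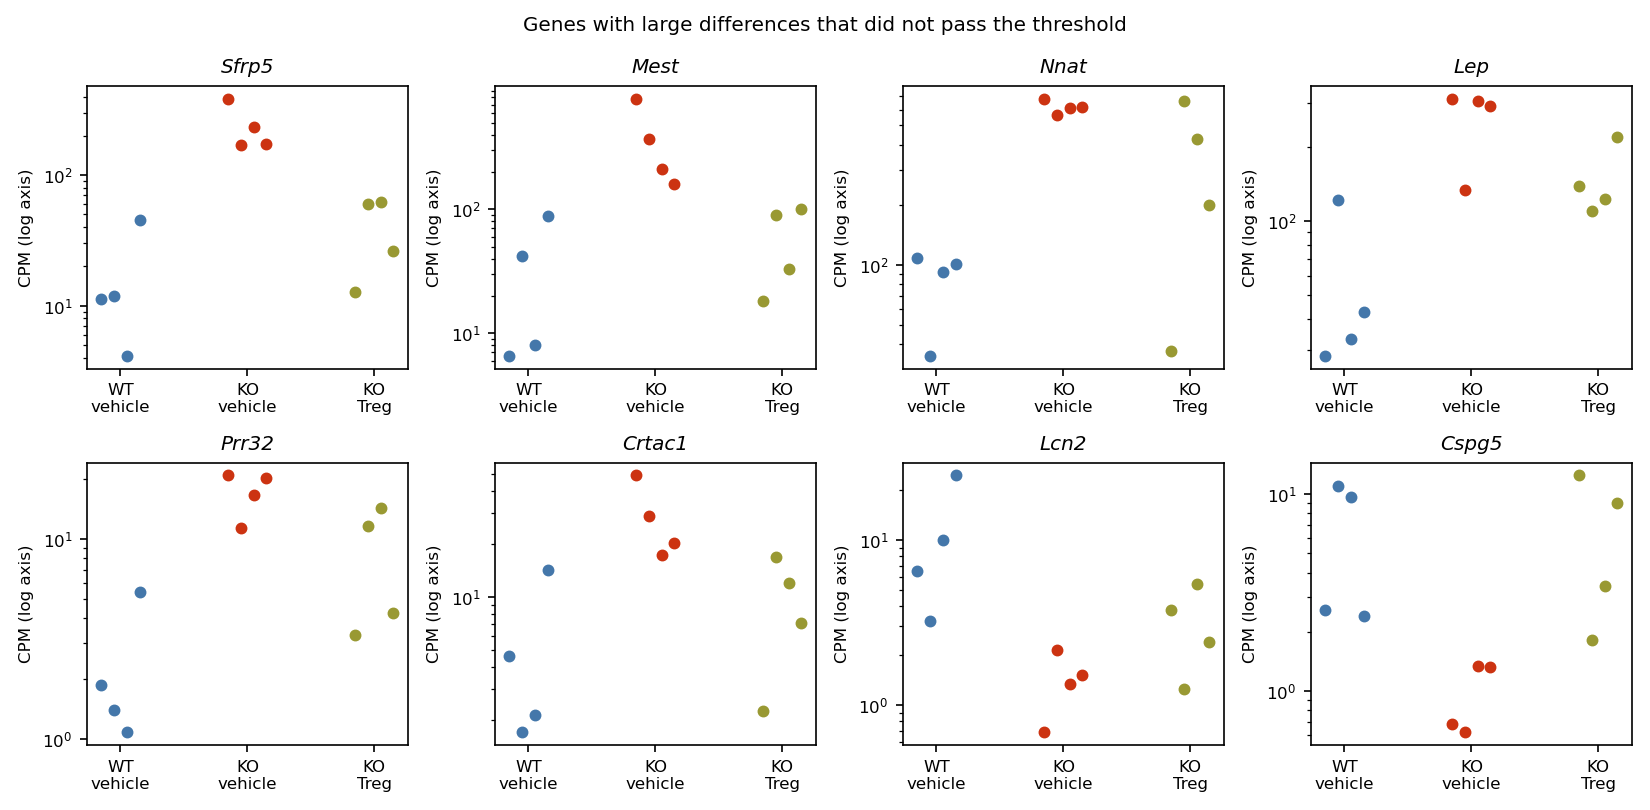
CPM on a log axis for 8 genes with large differences that did not pass the threshold, in each library of WT vehicle, KO vehicle and KO Treg (points, replicates 1 to 4 from left to right). KO vehicle libraries are all above WT vehicle in Sfrp5, Mest, Nnat, Lep, Prr32 and Crtac1 and all below in Lcn2 and Cspg5; the WT vehicle points span 4.13 to 45.7 CPM in Sfrp5 and 6.59 to 88.3 CPM in Mest.

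The KO Treg libraries had the knockout label and another treatment, and they entered the fit without entering the difference. Pcolce2 read 32.5, 44.0, 41.0 and 41.3 CPM in KO Treg 1 to 4, against at most 33.6 in WT vehicle and at least 58.3 in KO vehicle. Fmo1 read 82.1, 67.9, 66.4 and 60.7 CPM, between the lowest WT vehicle value of 91.8 and, for the last library, the KO vehicle range of 51.4 to 61.5. Dysf read 17.9, 27.4, 28.7 and 28.8 CPM, within or below the WT vehicle range of 24.8 to 33.4. Ptger3 read 505, 182, 228 and 310 CPM, with 1 library above and 1 below the WT vehicle range. Nnat read 37.1, 660, 428 and 201 CPM and so spanned both groups. These genes were selected for their difference between KO vehicle and WT vehicle, so the KO Treg levels are a description only.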

How the data were processed

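QuantSeq libraries, which count the 3′ ends of transcripts, were made from total RNA of gonadal fat with a DNase step, per the labels' protocols. The authors deposited whole-number read counts per gene symbol. The submitters' processing notes name BWA 0.7.12, SAMtools 1.3.1, TopHat2 2.1.1, HTSeq 0.6.1 and mm10; no source used here gives their roles, the gene annotation, the strand setting or the hour of collection. Each library has 1 column of counts, and 0 other sample columns were left unused.

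From these counts, 20632 symbols were read, 4160 were 0 in all 12 libraries and 12175 passed the edgeR filter on low counts. Counts were fitted in edgeR 4.0.16 (R 4.3.3) by the robust quasi-likelihood test with TMM scaling, 12 libraries in 3 groups, and the contrast KO vehicle minus WT vehicle. P-values were adjusted by Benjamini and Hochberg over all genes tested, with 0.05 as the threshold. The KO Treg libraries entered the filter, the scaling and the estimate of spread, but not the difference. With the vehicle libraries alone, 11996 genes passed the filter. SE is the log2 fold change divided by the root of its F. List means used log2 CPM with a prior count of 2, and SE and SD cover the spread between these libraries. The fit was also run on data simulated from these libraries (5 draws, 12175 genes, 200 changed). There it found 57.4% of genes changed by a factor of 2 and 9.2% of those changed by 1.5. Of its calls in the simulated data, 4.86% were wrong. These shares describe the simulated data only, and whether they hold for the genes called in the real libraries was not tested.

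Alternatives were RLE and upper quartile scaling, no filter or a filter at 20 counts, a fit that was not robust, the 8 vehicle libraries alone, the number series as a covariate or its lower part alone, each library left out, KO vehicle 1 and KO Treg 2 left out together, DESeq2 1.42.0 and limma voom (3.58.1). Named genes were the targeted and regulatory T cell genes, all called genes, up to 3 genes of smallest p and 2 of highest level per list, and the 8 largest differences in each direction without overlap and at 5 CPM or more in the higher group. The comparison, the members and the lists were chosen with earlier results of these data known, so counts over lists are descriptions. Gene positions and exon overlaps were read from GENCODE M21 (mm10); among the 34 called genes, 2 share exon positions with a gene on the same strand and 12 with a gene on the opposite strand. Motif shares were counted over promoters outside chromosome 18. Exact intervals for low counts cover counting error only. Some named genes are not reported here.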

Additional observations from a re-analysis of the deposited data

Results flagged for a closer look

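In 5 of the 92 groups of 4 libraries examined (34 called genes and 12 lists in both vehicle groups), 1 library lay far from the other 3 by Dixon's test at 95%; chance alone marks about 1 group in 20. In 3 of them the library was KO vehicle 1, the highest of its group for Vgll3 (17.7 CPM), Zfyve28 (16.9 CPM) and Anxa2 (1624 CPM). KO vehicle 1 was also the vehicle library with counts for 15 of 21 placental genes, and the part of these in the 3 values was not tested. Without it the log2 fold changes were 1.36 for Vgll3, 2.31 for Zfyve28 and 0.85 for Anxa2, each still above 0. WT vehicle 3, the library with the fewest counts, was lowest for Morf4l2 at 91.1 CPM. KO vehicle 4 was the highest KO vehicle library for the smooth muscle list, with a mean of 6.53 log2 CPM; without it the median of that list was -1.66.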

How the results depend on the processing

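RLE scaling, upper quartile scaling, both filters, the fit that was not robust and limma voom left the count of called genes within 1.5 times the 34 given, between 30 and 44. The vehicle libraries alone gave 39 higher and 6 lower. With the number series as a covariate, and within the lower series alone, 0 genes were called, 0 higher and 0 lower. Without KO vehicle 1 and KO Treg 2 together, 3 were called, 3 higher and 0 lower. DESeq2 called 259, 164 higher and 95 lower. Leaving out 1 library at a time gave 1 to 125 called genes, 1 to 86 higher and 0 to 39 lower; the highest counts came without WT vehicle 4, the lowest when KO vehicle 1 or 2 or WT vehicle 3 was dropped. No paired analysis was possible because the libraries carry no shared replicate number. No gene named in the text reversed its direction in a setting in which it was called. Among the 12 lists followed most closely, the medians that moved by more than the spread under a setting other than a left-out library were macrophages with the covariate (0.31), and, within the lower series, flavin monooxygenases and P450s (-0.68), Hippo targets (0.38) and caveolae (0.67). Over libraries left out, cell cycle medians ran from 0.23 to 0.46 and flavin monooxygenase medians from -0.70 to -0.38. In 9 other lists the median moved by more than the spread in at least 1 setting, 19 moves in all, among them branched-chain amino acid breakdown within the lower series (-0.41) and complement with the covariate (0.32). Of the 71 lists with at least 4 genes tested, 24 changed the sign of their median in at least 1 setting. The causes were not tested. Depth limited weakly expressed genes: 3 counts equal 0.539 CPM in WT vehicle 3, the shallowest library.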

Other observations

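Some further lists complete the description of the fat. Lipolysis and lipid droplet genes stood 13 of 18 above 0 (median 0.22, 3 without overlap, none called; 0.10 without WT vehicle 3 and 0.14 without KO vehicle 3). Triglyceride assembly stood 12 of 14 below 0 (-0.27; -0.47 without KO vehicle 3), with none called. Fatty acid oxidation stood 20 of 25 below 0 (-0.27), with none called, but without WT vehicle 1 its median was above 0, at 0.099, and without KO vehicle 4 it was -0.14. Cholesterol synthesis stood 17 of 22 below 0 (-0.27), with a median of -0.042 without WT vehicle 2, between -0.41 and -0.40 without KO vehicle 3, WT vehicle 3 or WT vehicle 4, and -0.62 within the lower number series. Adipogenic transcription factors stood 17 of 21 below (-0.24; -0.15 without WT vehicle 2). Adipokine genes had no common direction (6 above and 7 below 0, with 3 higher and 3 lower without overlap). Genes of TGF-beta and BMP signalling were evenly divided, 12 above and 12 below 0, with a median of 0.00, and hypoxia genes had a median of 0.00 as well. Immediate early genes stood 12 of 20 above 0 (0.24; 0.16 without WT vehicle 2): Dusp1, a phosphatase that damps stress kinases, read 46.0, 33.8, 33.6 and 37.4 CPM in WT vehicle and 62.7, 57.0, 56.8 and 55.0 CPM in KO vehicle (0.62 ± 0.14 SE, edgeR adjusted p = 0.0836). Aqp7, the glycerol channel of adipocytes, read 33.9, 26.0, 18.9 and 33.7 CPM against 40.8, 43.6, 50.9 and 42.4 CPM (0.65 ± 0.18 SE, edgeR adjusted p = 0.138). Irs2, an insulin receptor substrate, read 88.1, 60.2, 70.1 and 95.8 CPM against 126, 140, 116 and 132 CPM (0.71 ± 0.22 SE, edgeR adjusted p = 0.178). For these 3 genes the KO vehicle libraries all lay above the WT vehicle libraries, and none was called.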
